A study of Homo sapiens with 12 samples.

Results

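The genes described here are 10 of the 20098 protein-coding genes on chromosomes 1 to 22 and X, and they carry the unfolded protein response and the integrated stress response: ATF4, ATF6, DDIT3, HSPA5, ERN1, EIF2AK3, PPP1R15A, TRIB3, ASNS and CHAC1. They were chosen by name, with earlier results of these data known. A region of the peak lists was given to a gene's promoter if it touched a window that begins 1000 bp before and ends 100 bp after one of its annotated transcript starts, and to its locus if it lay in the gene or within 10 kb of it. The 6 lists come from HCC70, an established triple-negative breast cancer line. Cells were exposed for 24 h to vehicle or to the RORγ antagonist XY018 (RORγ is a nuclear receptor), and chromatin was then precipitated with antibodies against SREBP2 (the transcription factor that drives sterol synthesis genes), against RORγ, or against H3K27ac (histone H3 acetylated at lysine 27, a mark of active promoters and enhancers). The labels put the dose of XY018 at 5 µM, whereas the study's methods name a lower one. Each of the 6 groups is 1 library from the same cell line, so no difference below has a replicate check, intervals cover counting error only, and no p-value is given. The 6 input libraries that the labels also name were not analysed here on their own.

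The unfolded protein response is set off when unfolded proteins pile up in the endoplasmic reticulum. ERN1 (the kinase and nuclease IRE1α), EIF2AK3 (the kinase PERK) and ATF6 are its membrane-bound sensors, and HSPA5 (the chaperone BiP) binds them at rest. PERK phosphorylates the translation factor eIF2α, which slows protein synthesis in general while the mRNA of the transcription factor ATF4 is translated more. ATF4 acts on genes such as DDIT3 (the transcription factor CHOP), TRIB3 (a pseudokinase that feeds back on ATF4 and CHOP), ASNS (asparagine synthetase) and CHAC1 (an enzyme that degrades glutathione), and PPP1R15A (GADD34) guides the phosphatase that removes the phosphate from eIF2α again.

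The DNA elements through which this program is known to work could be read in the 500 bases before the canonical starts in the GRCh37 genome, the build of the lists. The ATF4 element CARE, searched as TGATGNAA on both strands, lay before 3 of the 10 genes, ASNS, CHAC1 and DDIT3, and before 4.74% of 19817 promoters of that length. The endoplasmic reticulum stress element ERSE, searched as CCAAT and CCACG with 9 bases between them, lay before HSPA5 alone among the 10 genes and before 0.126% of all promoters. An E-box (CACGTG) was found before ATF4 only, against 12.3% of all promoters. None of the 10 windows held the sterol element SRE, searched as TCACNCCAC (2.36% of all promoters), the RORE core (0.939%), the element UPRE, searched as TGACGTGG (1.03%), or ERSE-II (0.0959%). GC boxes (GGGCGG) lay before 7 of the 10 genes and before 65.2% of all promoters. None of the CARE, ERSE and E-box matches overlapped another motif searched, and the E-box reads the same on both strands. The stretches that hold them are shown because CARE and ERSE are the elements this program is known for, and the E-box because it was the only one among the 10 genes, with the motif in capitals and each stretch written 5′ to 3′ on the gene's strand. For ASNS, CHAC1 and ATF4 the motif also lies in an exon of another annotated transcript, and only 30 bases are shown. The ATF4 E-box lay 567 and 542 bp from the SREBP2 summits with vehicle and XY018, outside the SREBP2 regions.
ASNS, CARE, chr7:97501770-97501799, minus strand: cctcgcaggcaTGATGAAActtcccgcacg
CHAC1, CARE on the opposite strand, chr15:41245449-41245478, plus strand: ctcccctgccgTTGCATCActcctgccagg
DDIT3, CARE on the opposite strand, chr12:57914527-57914676, minus strand: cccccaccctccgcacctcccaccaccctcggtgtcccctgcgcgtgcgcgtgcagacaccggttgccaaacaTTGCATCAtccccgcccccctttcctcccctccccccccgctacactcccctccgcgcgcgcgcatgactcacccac
HSPA5, ERSE, chr9:128003662-128003811, minus strand: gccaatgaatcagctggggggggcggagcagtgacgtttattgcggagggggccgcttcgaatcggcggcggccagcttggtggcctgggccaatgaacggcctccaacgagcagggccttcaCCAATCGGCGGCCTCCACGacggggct
ATF4, E-box, chr22:39916470-39916499, plus strand: ggaggagacggtCACGTGgtcgcggcggaa

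Each region of the lists has a summit, and the number of sequenced fragments stacked there could be recovered from its deposited fold enrichment and p-value as a whole number for 98.7% to 100% of the regions of a library. The lists held from 69700 regions (SREBP2 with XY018) to 167264 (RORγ with vehicle), the weakest regions held 4 or 5 fragments, and the genome-wide background lay between 0.712 and 1.21 fragments. These lists are longer than the high-confidence sets of SREBP2 and RORγ sites that the study describes, so a listed factor region is not one of those sets' calls by itself. A ratio below is the XY018 over the vehicle fragment number after each was divided by the background of its own library, with an exact conditional binomial 95% interval. H3K27ac regions were present with vehicle at the promoters of 4 of 5 basal breast markers (KRT14 had none), all 4 epithelial markers, 3 of 4 hormone receptor and luminal markers (ESR1, GREB1 and FOXA1, but not PGR) and 1 of 3 fibroblast markers (COL1A1), and the same counts were found with XY018. The share over all protein-coding genes was 66.8% with vehicle and 68.0% with XY018, so counts of so few markers do not tell cell types apart.

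All 10 genes had an H3K27ac region at a promoter with vehicle and with XY018, against 66.8% and 68.0% of all protein-coding genes. An SREBP2 region was listed for 9 of them with vehicle, all but ATF6, and for 7 with XY018, all but ATF6, DDIT3 and PPP1R15A. The corresponding shares of all genes were 70.6% and 62.7%. RORγ regions were fewer than SREBP2 regions with vehicle and as many with XY018. ATF4, DDIT3, ERN1, EIF2AK3 and TRIB3 had one with vehicle, and ASNS and CHAC1 had one in addition with XY018. These 5 and 7 genes stand beside 62.6% and 61.5% of all genes. In GRCh37 the sensors lie at chr1:161736088-161947364 (ATF6, plus strand), chr17:62116440-62208179 (ERN1, minus) and chr2:88856259-88991036 (EIF2AK3, minus), and HSPA5 at chr9:127997132-128003661 (minus). The transcription factor genes lie at chr22:39915700-39918688 (ATF4, plus) and chr12:57910371-57915520 (DDIT3, minus). The feedback genes lie at chr19:49375469-49379316 (PPP1R15A, plus) and chr20:343479-378203 (TRIB3, plus), and the enzyme genes at chr7:97480989-97501854 (ASNS, minus) and chr15:41245160-41248710 (CHAC1, plus). The RORγ count with vehicle moved with the rule, to 3 where q had to be at most 1e-05 or the summit itself had to lie in the promoter window, and to 8 within 5 kb of a start. ATF6 thus had H3K27ac but neither factor at its promoter, and HSPA5 and PPP1R15A had no RORγ region at a promoter in either library.

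**Figure D1:**
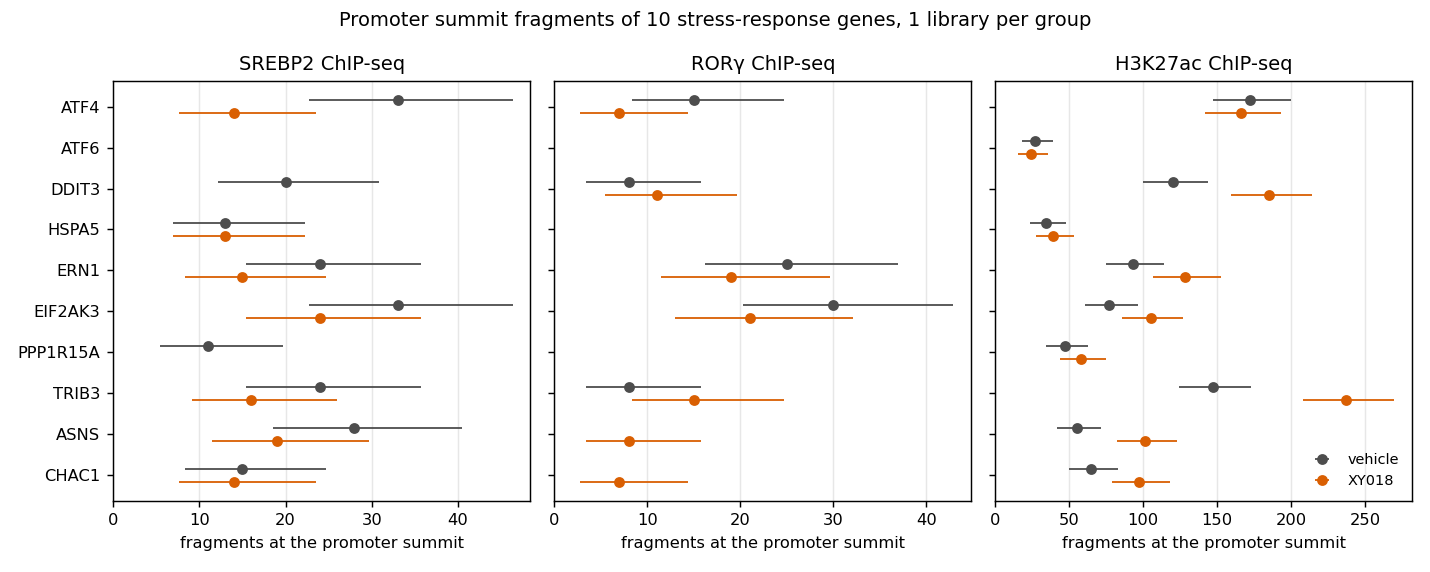
Fragments at the promoter summit of each gene (x axis, linear, from 0) in the 6 libraries, one panel per antibody, grey for vehicle and orange for XY018, with exact Poisson 95% intervals. A missing point means that no region was listed. The orange points lie to the right of the grey ones for H3K27ac at 8 of the 10 genes, and at or to the left of them for SREBP2 at all 7 genes with both.

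H3K27ac was higher with XY018 at 9 of the 10 promoters, with ASNS, TRIB3, DDIT3 and CHAC1 at the top and ATF4 and ATF6 at the bottom. A rise was common among all genes too: the ratio was below 1 at 1 of the 10, ATF6, and at 19.5% of all paired genes. The study, by contrast, describes lower H3K27ac with XY018 where SREBP2 binding was lost, including at cholesterol-biosynthesis genes. The ratios here rest on the background of single libraries (XY018 over vehicle 0.913 for H3K27ac), and the difference in direction was not tested. The summit fragments of all 10 promoters added up to 837 with vehicle and 1140 with XY018, a ratio of 1.49 (1.36 to 1.63). Divided by the median over all paired genes, this ratio became 1.17 (1.07 to 1.28). The sum includes, for DDIT3, a pair of 120 and 185 fragments whose summits lie in an MBD6 promoter. The median over the 10 genes was 1.501, against 1.27 over the 12881 genes that had a pair of overlapping regions. The interval lay above 1 at 6 of the 10 genes, against 36.1% of all paired genes, and the ratio was past 1.5-fold at 5, against 22.7%. At none of the 10 was the interval below 1 or the ratio past 1.5-fold lower, against 1.93% and 3.07% of all paired genes. Since the median promoter was itself 0.35 higher on the log2 scale, each ratio was also divided by that median, which left 7 of the 10 genes above 1, with ATF4, ATF6 and HSPA5 below it, and 3 with an interval above 1, DDIT3 (by the pair in an MBD6 promoter), TRIB3 and ASNS, against 6.17% of all paired genes.

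Of the 10 genes, ASNS had the largest H3K27ac ratio. Its promoter summit held 55 fragments with vehicle and 101 with XY018, a ratio of 2.01 (1.43 to 2.85), which was above that of 97.3% of all paired genes. The region was 833 bp wide with vehicle and 1380 bp with XY018. In both libraries it covered the CARE shown above, which lay 171 and 154 bp from the summits. TRIB3 had the strongest H3K27ac promoter of the 10 genes with XY018. Its summit held 147 fragments with vehicle and 237 with XY018, a ratio of 1.77 (1.43 to 2.18), at deposited fold enrichments of 68.2 and 115. CHAC1 had 65 fragments with vehicle and 97 with XY018, a ratio of 1.63 (1.18 to 2.27), and the summits lay 91 and 108 bp from its CARE. PPP1R15A had 47 and 58 fragments, a ratio of 1.35 with an interval from 0.904 to 2.03 that includes 1.

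The DDIT3 value has to be read with its neighbour. The strongest pair that touched a DDIT3 promoter window, 120 fragments with vehicle and 185 with XY018 (ratio 1.69, 1.34 to 2.14), had its summits more than 1000 bp upstream of every DDIT3 start and inside a promoter window of MBD6, a gene transcribed away from DDIT3. The H3K27ac region whose summit lay inside the DDIT3 window, at -525 and -619 bp from the canonical start, was weaker, with 17 fragments with vehicle and 28 with XY018, a ratio of 1.80 (0.954 to 3.51). Its summits also lay in promoter windows of further starts of MBD6 and of the gene ENSG00000285133. One more region, with summits at 533 and 535 bp in an MBD6 window, held 12 and 23 fragments. All 3 regions had more fragments with XY018, but none of them belonged to DDIT3 alone, and the interval of the one in its window included 1.

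For the sensors the H3K27ac values differed between genes. ERN1 had 93 fragments with vehicle and 128 with XY018, a ratio of 1.51 (1.15 to 1.99). EIF2AK3 had 77 and 105 at its canonical start, a ratio of 1.49 (1.103 to 2.03). At its far upstream start, in a promoter shared with RPIA, the summits held 25 and 37 fragments. When each gene is taken by its strongest pair, ATF6 had the weakest, with 27 and 24 fragments and a ratio of 0.974 (0.538 to 1.75). HSPA5, the chaperone the sensors bind, carried H3K27ac on both sides of its start. Just downstream the summits held 34 and 39 fragments, a ratio of 1.26 (0.773 to 2.05), and upstream of the ERSE, at -713 and -692 bp, they held 26 and 43, a ratio of 1.81 (1.09 to 3.07). The deposited fold enrichments at the upstream pair, taken over local background, were 5.00 with vehicle and 21.2 with XY018. The local background thus differed between the 2 libraries, and its part in the ratio was not tested. ATF4 itself had the highest vehicle value, 172 fragments, and 166 with XY018, a ratio of 1.06 (0.849 to 1.32) that lay above that of 24.5% of all paired genes. The 2 ATF4 summits were at opposite ends of 1 broad region, at -614 bp with vehicle and at 515 bp with XY018.

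**Figure D2:**
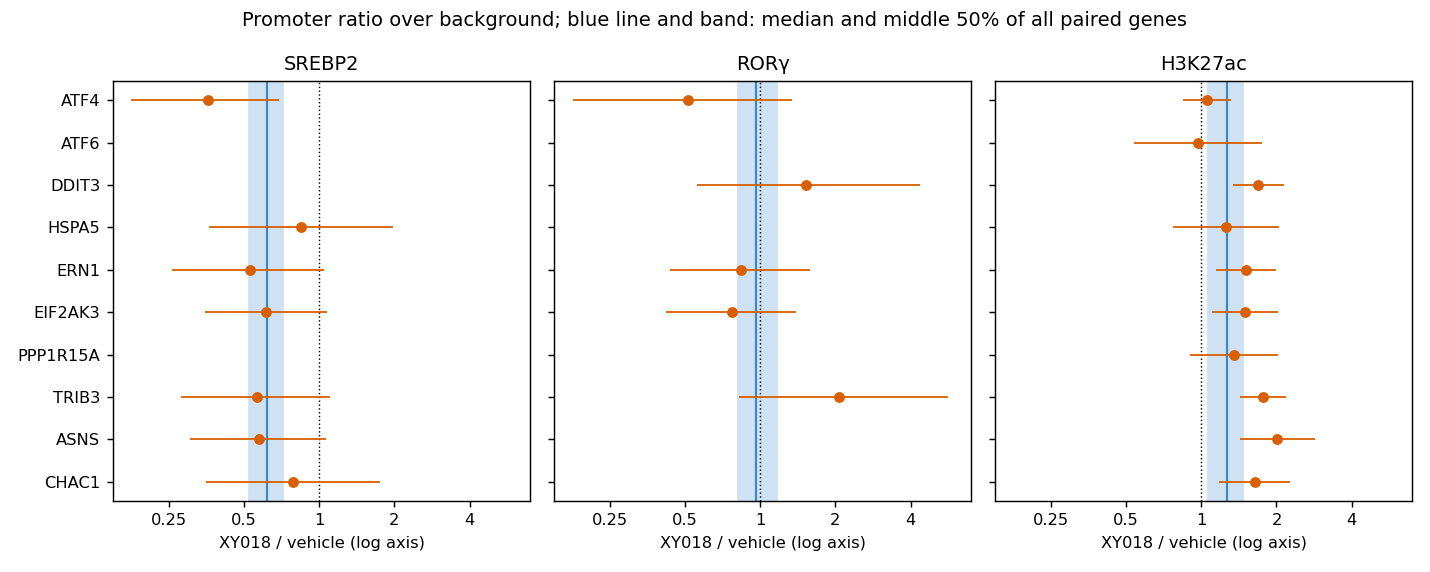
Promoter ratio of XY018 over vehicle for each gene (x axis, log scale) with its exact conditional binomial 95% interval, one panel per antibody; the blue line and band give the median and the middle 50% of all paired genes, the dotted line a ratio of 1. For SREBP2 4 of the 7 points lie in the band from 0.523 to 0.721, with ATF4 to its left and CHAC1 and HSPA5 to its right, and for H3K27ac ASNS, TRIB3, DDIT3, CHAC1, ERN1 and EIF2AK3 lie to the right of the band.

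SREBP2 was lower with XY018 at all 7 promoters that had a region in both libraries, but so it was at 98.0% of the 12337 paired genes. The summits of the 7 genes added up to 170 fragments with vehicle and 115 with XY018, a ratio of 0.573 (0.448 to 0.730). Divided by the median over all paired genes, 0.621, the ratio became 0.922 (0.722 to 1.18). At 5 of the 7 genes the ratio was past 1.5-fold lower, against 62.5% of all paired genes, and at 1, ATF4, the interval lay below 1, against 37.0%. At the ATF4 summits at -650 and -625 bp from the canonical start, in an intron of a longer transcript, SREBP2 had 33 fragments with vehicle and 14 with XY018, a ratio of 0.359 (0.178 to 0.690). The local background at that place was 1.76 fragments with vehicle and 3.94 with XY018, and its part in the ratio was not tested. Divided by the all-gene median the ATF4 ratio was 0.578 (0.286 to 1.11), so the interval then included 1. A second vehicle region that touched an ATF4 promoter window, with 40 fragments, is described with the shared sites below and had a ratio of 0.656 with an interval that includes 1.

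The other 6 SREBP2 ratios lay between 0.529 and 0.847. EIF2AK3 had 33 fragments with vehicle and 24 with XY018 (ratio 0.616). ASNS had 28 and 19 (0.575), with summits 133 and 143 bp from the CARE. TRIB3 had 24 and 16 (0.564), and ERN1 24 and 15 (0.529). CHAC1 with 15 and 14 (0.790) and HSPA5 with 13 and 13 (0.847) had the highest ratios, above those of 86.3% and 90.5% of all paired genes. All 6 of these intervals include 1. PPP1R15A had 11 fragments with vehicle and no promoter region with XY018. For DDIT3 the vehicle list had a region of 5 fragments with its summit in a window that DDIT3 shares with MBD6 and ENSG00000285133, and 1 of 20 fragments with its summit in a window of MBD6 alone. The XY018 list had no region at the former and 14 fragments at the latter, in a region that lay 29 bp outside the DDIT3 window.

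RORγ gave small counts at these promoters, and no interval of a ratio lay off 1, against 1.65% of the 11305 paired genes with a lower and 1.13% with a higher interval. The 5 genes with a pair added up to 86 fragments with vehicle and 73 with XY018, a ratio of 0.938 (0.677 to 1.30). ATF4 had 15 and 7 fragments in the same intron, a ratio of 0.516 (0.178 to 1.34), the only one past 1.5-fold lower, against 9.5% of paired genes. TRIB3 had 8 and 15 (2.07, 0.825 to 5.64) and DDIT3, at the MBD6 promoter, 8 and 11 (1.52, 0.557 to 4.35), and these 2 were past 1.5-fold higher, against 7.34% of paired genes. ERN1 had 25 and 19 (0.840) and EIF2AK3 30 and 21 (0.774), the strongest RORγ promoters of the 10 genes with vehicle. ASNS and CHAC1 were listed with XY018 only, with 8 and 7 fragments, near the floor of the list.

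Strong transcription factor sites of these loci were also found in exons and downstream of genes. Requiring a region in all 4 SREBP2 and RORγ lists, with neighbouring summits at most 150 bp apart, left 11 sites at 7 of the 10 genes, of which 5 touched a promoter window. The same search was not run over all genes, so these counts do not set the 10 genes apart. EIF2AK3 had overlapping regions in all 4 lists at its canonical start, with 33 and 24 SREBP2 and 30 and 21 RORγ fragments. It was left out because its RORγ summits, at 273 bp with vehicle and 619 bp with XY018, lay too far apart. ATF4 had a second site in a non-coding exon, 479 to 517 bp downstream of the canonical start, stronger than the intronic one. There SREBP2 had 40 fragments with vehicle and 31 with XY018 (ratio 0.656, 0.397 to 1.08), and RORγ had 22 and 18 (0.904, 0.457 to 1.77). PPP1R15A, which had only the vehicle SREBP2 region at its start, had a site in a coding exon, 3247 to 3309 bp downstream. SREBP2 had 26 and 29 fragments there (0.945, 0.537 to 1.67), RORγ 20 and 30 (1.66, 0.911 to 3.08), and H3K27ac 77 and 103 (1.47, 1.08 to 1.995), which is more than the 47 and 58 at its promoter.

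TRIB3 had 2 sites in coding exons, beginning 10631 and 15670 bp downstream of the canonical start, and at both SREBP2 was lower and RORγ higher with XY018. SREBP2 had 18 and 10 fragments at the first and 19 and 11 at the second, and RORγ had 6 and 10, then 10 and 16. The same order was seen at the TRIB3 promoter, but each of these intervals includes 1. The site with the most RORγ fragments, 54 with vehicle and 47 with XY018, lay 29242 to 29348 bp from the ASNS start, downstream of the end of the gene. SREBP2 had 46 and 42 fragments there (0.773, 0.497 to 1.201), and no H3K27ac region was listed at it with either treatment. The first of the TRIB3 exon sites had no H3K27ac region either, and the second had one of 18 fragments with XY018 only. A weaker site downstream of CHAC1 was also without H3K27ac, with 9 and 8 SREBP2 and 12 and 8 RORγ fragments. The site 12118 to 12148 bp downstream of the ATF4 start lay in the promoter of RPS19BP1.

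**Figure D3:**
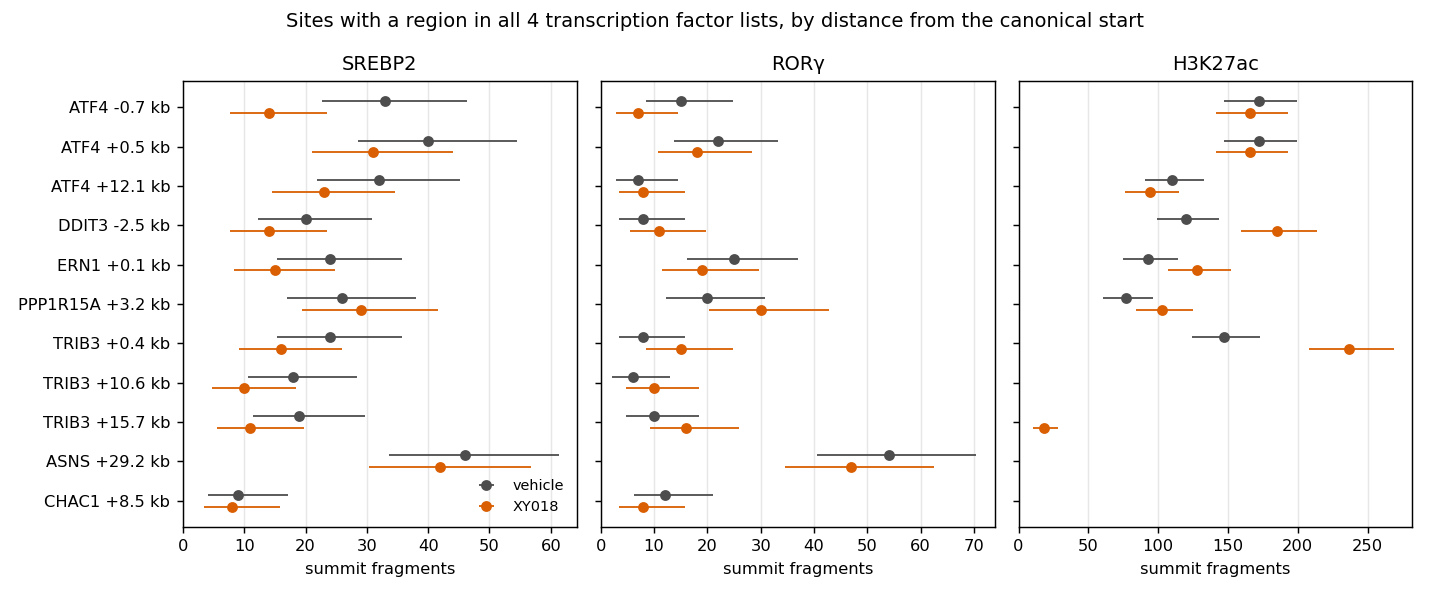
Summit fragments (x axis, linear, from 0) at the 11 sites with a region in all 4 transcription factor lists and neighbouring summits at most 150 bp apart. There is one panel per antibody, grey for vehicle and orange for XY018, with exact Poisson 95% intervals. Sites are named by gene and distance from the canonical start in the direction of transcription. The first 2 ATF4 sites share 1 broad H3K27ac region, and the ASNS downstream site has the highest factor counts and no H3K27ac point.

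Counting every region within 10 kb of the genes, SREBP2 had 50 with vehicle and 27 with XY018. Of the 50, 20 overlapped an XY018 region, or 40.0% (Clopper-Pearson 26.4 to 54.8), against 44.2% around all protein-coding genes. The share was 65.0% among the 20 regions with q of at most 1e-05. Of the 27 regions with XY018, 18 overlapped a vehicle region, or 66.7%, against 76.0% around all genes. RORγ had 38 and 37 regions within the same distance, and 16 of the 38, or 42.1% (26.3 to 59.2), overlapped an XY018 region, against 41.0% around all genes. With q of at most 1e-05 the RORγ share was 66.7%, among 9 regions. Of the 37 regions with XY018, 15 overlapped a vehicle region, or 40.5%, against 52.7% around all genes. H3K27ac had 67 and 93 regions. Of the 67, 58 overlapped an XY018 region, or 86.6% (76.0 to 93.7), against 69.8% around all genes. The interval counts each region as separate, but 19 of the 67 lay at TRIB3 alone, and all 19 overlapped an XY018 region. Neighbouring regions of a locus are not independent, so the interval is too narrow for a comparison with all genes. With summits required to lie within 100 bp of each other the share of the 67 regions was 52.2%. The shares of 65.0%, 66.7% and 52.2% come from stricter rules under which no all-gene share was computed. They cannot be set against the all-gene shares given here. In the other direction, 57 of the 93 XY018 regions overlapped a vehicle region, or 61.3% (50.6 to 71.2), against 63.4% around all genes.

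H3K27ac regions covered more length with XY018 at 9 of the 10 loci, against 57.8% of 15231 genes. The number of regions was higher at 6 of the 10 genes, against 45.6% of the 16103 protein-coding genes with any, and lower at none, against 28.1%. With 10 genes, 6 is not far from the all-gene share, and the number also rises where a region is split. The 6 genes were TRIB3 (19 regions with vehicle, 26 with XY018), ERN1 (12 and 18), PPP1R15A (4 and 9), DDIT3 (4 and 7), HSPA5 (4 and 7) and ATF4 (6 and 8). The length covered went from 46.7 to 65.9 kb over all 10 loci, with a median ratio of 1.28 per gene, against 1.0465 over 15231 genes, while the list as a whole had 1.11 times as many regions. PPP1R15A went from 2318 to 8043 bp covered and HSPA5 from 1890 to 5081 bp, the largest ratios of the 10 genes. ATF6 went down from 2486 to 2183 bp, and the ratios at CHAC1 and EIF2AK3 were only 1.014 and 1.043. The mean summit of the regions was 39.0 fragments with vehicle and 31.2 with XY018 at PPP1R15A, and 20 and 22.7 at HSPA5. Upstream of HSPA5, a region with summits at -1709 and -1719 bp held 10 fragments with vehicle and 28 with XY018, and a region with 23 fragments at -2725 bp was listed with XY018 only.

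At TRIB3 the H3K27ac regions formed a chain across the intron of a longer transcript, from -17619 bp with vehicle and -17675 bp with XY018 down to the promoter. Most links of this chain were listed with both treatments, with 8 to 28 fragments with vehicle and 10 to 33 with XY018. The last one before the promoter held 14 fragments with vehicle, at -1688 bp, and 30 with XY018, at -365 bp. The XY018 summit lay in the TRIB3 promoter window, so these counts come from different places. At the other end of the locus, the promoter of RBCK1 had 131 and 112 fragments, a ratio of 0.937 (0.721 to 1.21), and RPS19BP1 beside ATF4 had 110 and 94, a ratio of 0.936 (0.703 to 1.24). These neighbours thus lay below the genome-wide median of 1.27, whereas MBD6 and ENSG00000285133 beside DDIT3 (1.69 and 1.80) and RPIA beside EIF2AK3 (1.62) lay above it, with regions that they share with those genes. MARS1 beside DDIT3 held the summit of 1 SREBP2 region of 6 fragments, with XY018. The strongest H3K27ac pair at a MARS1 promoter lay outside the 10 kb around DDIT3 and was not shared with it. It held 30 fragments with vehicle and 55 with XY018, a ratio of 2.01 (1.26 to 3.25), also above the genome-wide median.

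**Figure D4:**
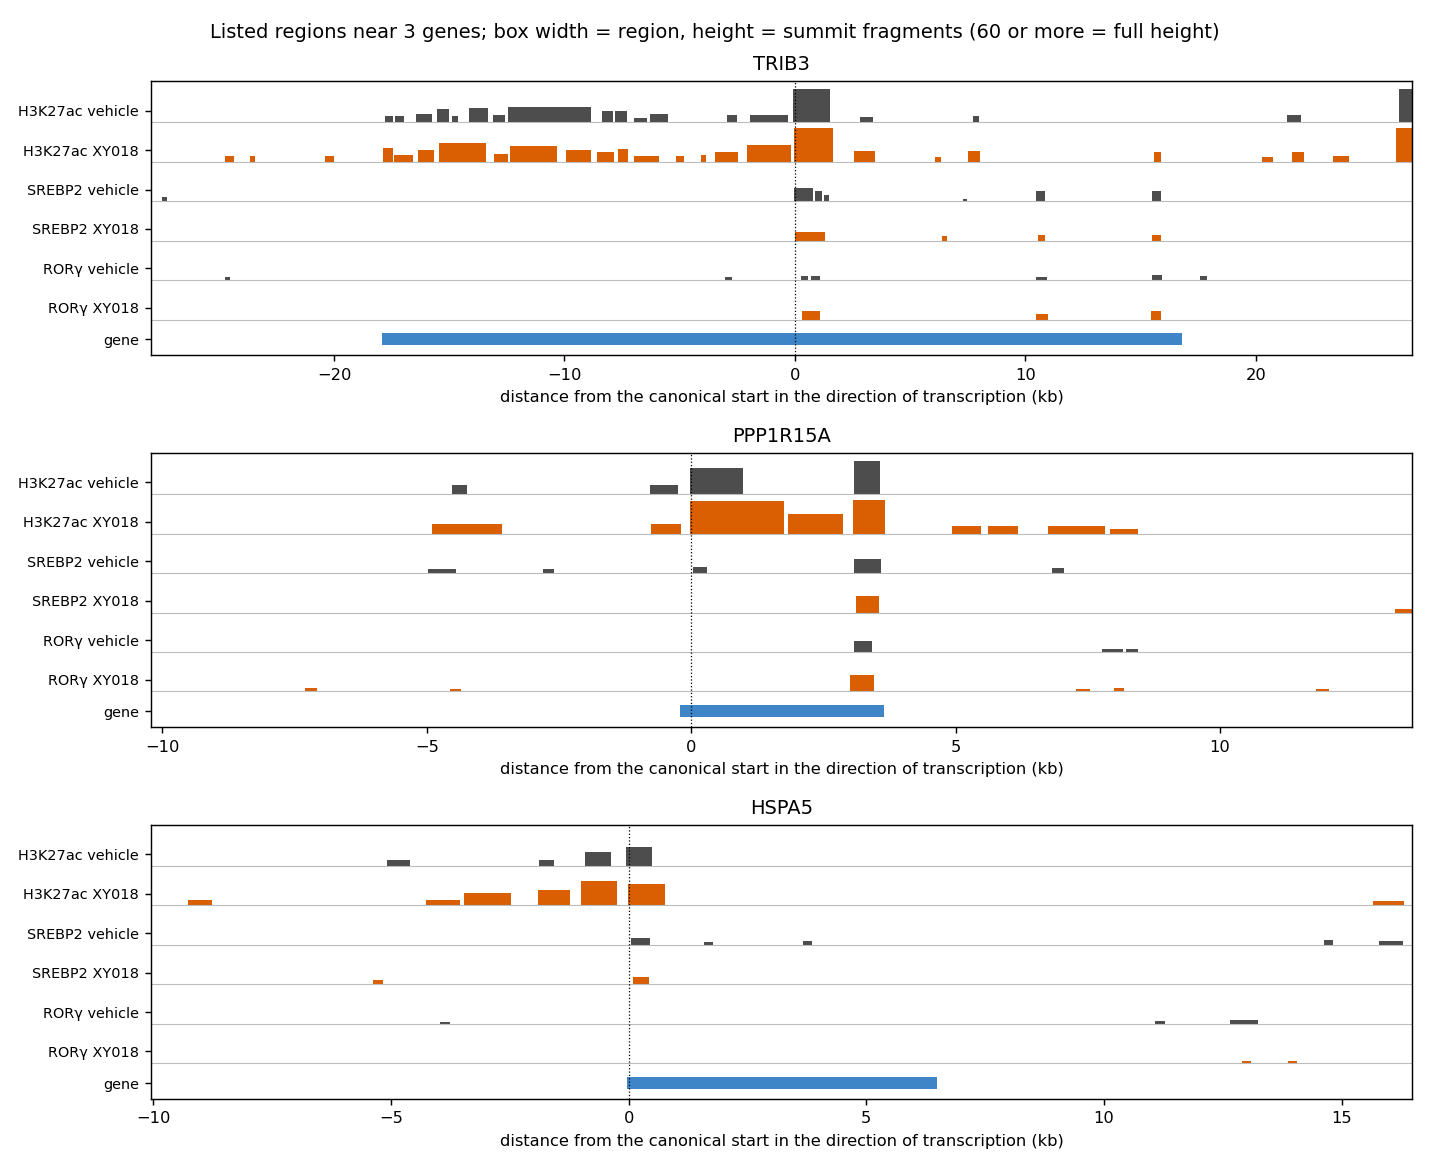
Regions of the 6 lists around TRIB3, PPP1R15A and HSPA5, by distance from the canonical start in kb; box width is the region, box height the summit fragments, capped at 60, grey for vehicle and orange for XY018, with the gene in blue. H3K27ac boxes are more numerous and wider with XY018 at PPP1R15A (4 and 9 regions) and HSPA5 (4 and 7), and the coding-exon site of PPP1R15A is seen in all 6 lists.

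Further genes of the pathway were taken from 3 lists, 56 genes in all, none of them among the 10. With H3K27ac, 54 had a promoter pair, and the median ratio was 1.30, against 1.27 over all genes. The interval lay above 1 at 27 of them, against 36.1% of all paired genes, and below 1 at 1, EIF2B5, against 1.93%. By list, the median ratio was 1.22 for 16 sensors and eIF2 control genes, with 5 intervals above 1, 1.36 for 18 chaperone and degradation genes, with 11, and 1.32 for 20 partners and targets of ATF4, with 11. The highest were SLC7A11 (the cystine transporter, 12 fragments with vehicle and 28 with XY018, ratio 2.56), VLDLR (a lipoprotein receptor, 70 and 153, 2.39) and HYOU1 (a chaperone of the endoplasmic reticulum, 95 and 199, 2.29). EIF2B5, a subunit of the exchange factor for eIF2, had 127 and 73 (0.630, 0.466 to 0.846).

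SREBP2 had a promoter region at 51 of the 56 genes with vehicle and at 44 with XY018, against 70.6% and 62.7% of all genes. It was lower at all 43 with a pair, as at 98.0% of all paired genes, with a median ratio of 0.605. The interval lay below 1 at 21, against 37.0% of all paired genes. The lowest ratios were those of EIF2B5 (42 fragments with vehicle and 12 with XY018) and MBTPS2 (the protease that releases ATF6 and SREBP2 from the membrane, 21 and 6), both 0.242, followed by PCK2 (a mitochondrial gluconeogenic enzyme, 54 and 22, 0.345). Among the 8 genes with an SREBP2 region with vehicle only, the strongest were EIF2B1 (12 fragments), PPP1R15B (11), DDIT4 (9), EIF2B2 (8) and GDF15 (8), with HSP90B1 also at 8, and 1 gene had one with XY018 only. RORγ regions were found at 37 of the 56 promoters with each treatment, against 62.6% and 61.5% of all genes, with a median ratio of 1.13 over 34 pairs and no interval off 1. PDIA3 (6 fragments) and EIF2B3 (5) had one with vehicle only, and EIF2B5 (8) and PSAT1 (6) with XY018 only.

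Over the 6 libraries, the profile of each gene was compared with those of the other genes of this set as the Euclidean distance of log2 summit fragments over background, among 38 candidates with a region in every library. ERN1 was nearest to EDEM1 (distance 0.49), TRIB3 to CANX (0.68), EIF2AK3 to SESN2 (0.68) and ATF4 to MTHFD2 (0.79). The other 6 of the 10 genes lacked a region in at least 1 library.

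**Figure D5:**
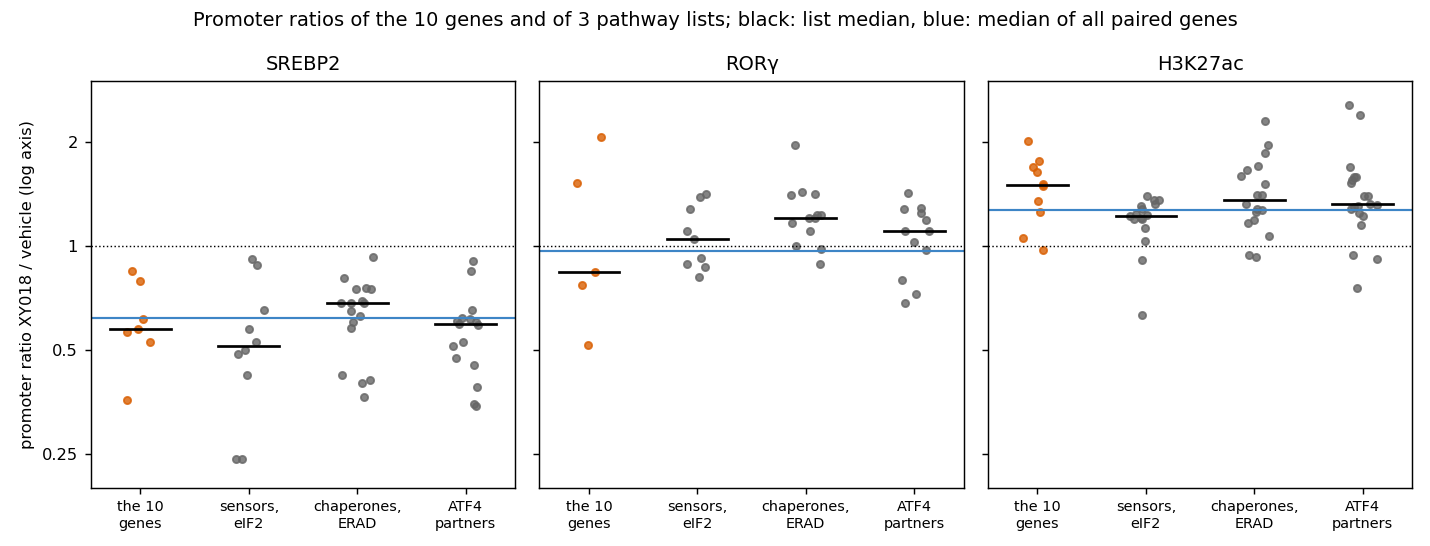
Promoter ratio of XY018 over vehicle (y axis, log scale) for the 10 genes (orange) and for 3 lists of further pathway genes (grey), one point per gene, one panel per antibody; black bars are medians of each column, the blue line is the median of all paired genes. For H3K27ac the median of the 10 genes, 1.501, lies above the 3 list medians of 1.22, 1.36 and 1.32.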

How the data were processed

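HCC70 chromatin immunoprecipitation libraries, 1 per antibody and treatment, were used as deposited peak lists. Per the study's methods the authors ran the AQUAS pipeline, mapped unique, deduplicated reads to hg19 and called peaks with MACS2 2.1.0, and each deposited list belongs to 1 library; the labels name Bowtie2 and the methods BWA as aligner. The deposited columns hold fold enrichment at the summit (a ratio over local background), its −log10 p-value and −log10 q-value, the summit offset, and a score that was not read. The sources used here do not say how the lists were filtered, and they are longer than the study's high-confidence sets; regions off chromosomes 1 to 22 and X were left out.

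From these the whole number of fragments at each summit and the local background were solved (Poisson tail, tolerance 5% of a step) and tested on simulated data. The commonest local background was taken as genome-wide background; depth is otherwise unknown. Transcript starts came from GENCODE v44 lifted to GRCh37, which is hg19. At each promoter the overlapping pair with the highest summed summit over background was used; over all 20098 genes, past 1.5-fold or an interval off 1 counted as called. Intervals are exact (Poisson, Clopper-Pearson, 95%) and cover counting error only. Motifs were sought on GRCh37. The 10 genes, the lists and the rules were chosen with earlier results of these data known. All 10 genes are named; of the 56 listed genes, per antibody up to 3 with the highest and 3 with the lowest ratio past 1.5-fold with an interval off 1, and for the factors up to 5 genes listed with 1 treatment only, strongest in vehicle first. Neighbours are named where their promoter holds a summit near the 10 genes. One further marker list is not reported here. Alternatives covered the q threshold, promoter window, transcript set, scaling, pair choice, overlap rule and flank. Python 3.11.15, pandas 2.3.3 and scipy 1.17.1 were used.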

Additional observations from a re-analysis of the deposited data

How the results depend on the processing

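Of 66 alternative values for 12 results, 55 stayed within 1.5 times the count or within the 95% interval, and 11 moved. No sum or ratio with an interval off 1 changed sides, but the RORγ sum, whose interval includes 1, went from 0.938 to 1.12 within 5 kb of a start and to 1.06 with the summit in the window. The number of genes with a RORγ promoter region with vehicle was 3 with q of at most 1e-05, 8 within 5 kb of a start and 3 with the summit in the window, and with XY018 it was 4 with the summit in the window. The summed ratio was 0.922 for SREBP2 and 1.17 for H3K27ac when scaled by the median ratio of all paired genes, and 1.65 for H3K27ac with the summit in the window; these 2 alternatives were added after seeing the data. The share of vehicle regions overlapping an XY018 region was 65.0% for SREBP2 and 66.7% for RORγ with q of at most 1e-05, 57.7% for SREBP2 in gene bodies alone, and 52.2% for H3K27ac with summits within 100 bp. The cause was not tested. Of 59 alternative values for the ratios of single genes, 3 moved, all H3K27ac under median scaling (ATF4 0.830, DDIT3 1.33, TRIB3 1.39). No paired analysis was possible because each group is 1 library. Single libraries of unknown depth, with paired promoter summits of 7 to 33 fragments for the factors, limit what these ratios can show.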
